A study of Mus musculus with 4 samples.

Results

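The genes described here are 10 cyclins and kinases of the meiotic divisions, Cdk1, Cdk2, Ccna1, Ccna2, Ccnb1, Ccnb2, Aurka, Aurkb, Aurkc and Plk1, followed through the cells of the mouse testis. They were chosen by symbol, and all 10 were found among the 55450 genes of the files. The study dissociated testes of mice and sequenced single cells with 10x Chromium 3' v3 chemistry, which counts each captured transcript once as a unique molecular identifier (UMI). Of its 4 libraries, 2 came from animals fed a high-fat diet (HFD) and 2 from animals fed a normal diet (ND). The labels give testis as the tissue and no strain, genotype, age or length of the diet, and they do not say how many animals went into a library or that libraries came from separate animals, so that the tests measure the spread between libraries, which may be technical.

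Entry into a meiotic division is driven by the kinase CDK1, which needs a bound B-type or A-type cyclin to be active. Polo-like kinase 1 and Aurora A help to switch this kinase on and to build the spindle. Aurora B and, in germ cells, its close relative Aurora C sit in the chromosomal passenger complex and correct the attachment of chromosomes to the spindle. In male mice cyclin A1 and CDK2 are needed for meiosis to be completed, and cyclin A2 is known from mitotic cells. Spermatocytes make and store many transcripts ahead of the divisions and of spermatid development, so a transcript's level does not say when its protein is present.

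The libraries held 13561 and 14368 barcodes in HFD and 15290 and 14618 in ND, with 143748262 to 154221188 UMIs each, where the labels state about 13000 recovered cells per channel. After filters and removal of called doublets, 13122 to 14468 cells per library were kept, with medians of 5509.5 to 5946 UMIs. Pairs of libraries shared 42 to 65 cell barcodes. Clusters were made without the 10 genes and were named from marker genes that are none of the 10, which gave 7 germ-cell classes and 5 somatic ones (Leydig-like, Sertoli-like, macrophage-like, lymphocyte-like and fibroblast-like). Between 33.6% and 40.4% of the cells of a library stayed unnamed, nearly all in clusters of low depth or led by mitochondrial transcripts. The late-spermatocyte-like class was a single cluster of 2081 cells with a median of 32208 UMIs, in which 7 of 8 late markers were above the rest of the cells, none was among its 10 leading genes, and its score for late spermatocytes (1.01) was close to that for pachytene spermatocytes (0.97).

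On the mouse assembly GRCm38 (mm10) with GENCODE M21, all 10 are protein-coding genes. Cdk1 (ENSMUSG00000019942) lies on chromosome 10 at 69335146 to 69352938 and Cdk2 (ENSMUSG00000025358) on chromosome 10 at 128697939 to 128705031. Ccna1 (ENSMUSG00000027793) lies on chromosome 3 at 55045469 to 55055501, and Ccna2 (ENSMUSG00000027715) on the same chromosome at 36564865 to 36572150. Ccnb1 (ENSMUSG00000041431) is on chromosome 13 at 100778650 to 100786570 and Ccnb2 (ENSMUSG00000032218) on chromosome 9 at 70407692 to 70421547. Aurka (ENSMUSG00000027496) is on chromosome 2 at 172356190 to 172370535, Aurkb (ENSMUSG00000020897) on chromosome 11 at 69045647 to 69051664 and Aurkc (ENSMUSG00000070837) on chromosome 7 at 6995300 to 7003091. Plk1 (ENSMUSG00000030867) is on chromosome 7 at 122159439 to 122169873. Cdk2, Ccna1, Ccna2 and Plk1 each overlap a gene on the opposite strand (Pmel, 4931419H13Rik, Exosc9 and Gm44985), and whether the counting used strand is not given in the sources used here. In late-spermatocyte-like cells Pmel had 36.6 UMIs per 100 cells, 4931419H13Rik 66.6 and Gm44985 0.240, and in spermatogonia-like cells Exosc9 had 31.5. The pseudogenes Ccnb1-ps and Ccnb2-ps had 2.07 and 11.6 UMIs per 100 late-spermatocyte-like cells. How reads shared with Ccnb1 and Ccnb2 were counted is not given in the sources used here.

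Promoter sequences were in the RefSeq table for 8 of the 10 genes, all but Ccna2 and Aurkb. Genes of the division phases are often described by a CCAAT box (CCAAT) followed by a cell cycle genes homology region, the CHR element (TTTGAA). Both strands were searched in windows of 250 bases before to 50 after the RefSeq gene start, which can differ from the GENCODE start. The Ccna1 window lies wholly inside the GENCODE gene, which begins at 55055501 on the minus strand. CCAAT was present in 8 of 8 members, against 37.4% of all 32851 promoters of the table. TTTGAA was present in 4 of 8, against 17.9% of all promoters, and both stood in the same 4, against 6.95%. No CCAAT overlapped a TTTGAA in these windows. The MYB core AACNG was present in 7 of 8, but 80.3% of all promoters hold it. A match is a match of letters and does not show a bound site. The 4 promoters with both elements and those of Ccna1 and Ccnb1, which hold CCAAT and not TTTGAA, are printed from RefSeq (GRCm38.p6), 5′ to 3′ on the gene's strand, with CCAAT or TTTGAA of either strand in capitals (a CCAAT on the other strand reads ATTGG).
Cdk1, chr10:69352863-69353162, minus strand: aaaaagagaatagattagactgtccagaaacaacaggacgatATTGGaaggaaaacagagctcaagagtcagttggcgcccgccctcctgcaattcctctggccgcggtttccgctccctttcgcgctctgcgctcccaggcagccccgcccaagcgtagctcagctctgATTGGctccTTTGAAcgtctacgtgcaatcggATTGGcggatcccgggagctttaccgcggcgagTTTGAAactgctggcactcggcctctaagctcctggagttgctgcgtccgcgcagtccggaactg
Ccnb2, chr9:70421505-70421804, minus strand: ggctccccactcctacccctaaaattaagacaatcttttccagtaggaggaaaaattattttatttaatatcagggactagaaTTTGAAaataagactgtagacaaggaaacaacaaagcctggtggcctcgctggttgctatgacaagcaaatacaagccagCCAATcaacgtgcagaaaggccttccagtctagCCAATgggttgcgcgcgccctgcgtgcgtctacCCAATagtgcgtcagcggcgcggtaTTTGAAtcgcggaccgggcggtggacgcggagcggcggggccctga
Aurka, chr2:172370521-172370820, minus strand: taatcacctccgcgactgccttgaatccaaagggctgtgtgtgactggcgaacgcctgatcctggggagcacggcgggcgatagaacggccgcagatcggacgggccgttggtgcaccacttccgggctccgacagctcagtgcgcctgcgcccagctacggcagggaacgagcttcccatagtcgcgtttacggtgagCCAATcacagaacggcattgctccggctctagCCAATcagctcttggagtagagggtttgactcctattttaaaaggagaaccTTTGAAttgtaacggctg
Plk1, chr7:122159185-122159484, plus strand: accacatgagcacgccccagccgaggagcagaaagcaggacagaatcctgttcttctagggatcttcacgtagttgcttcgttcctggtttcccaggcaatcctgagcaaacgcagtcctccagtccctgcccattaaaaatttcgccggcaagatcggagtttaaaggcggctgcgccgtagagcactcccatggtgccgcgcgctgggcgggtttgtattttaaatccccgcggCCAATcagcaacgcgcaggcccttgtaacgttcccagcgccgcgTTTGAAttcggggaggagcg
Ccna1, chr3:55055006-55055305, minus strand: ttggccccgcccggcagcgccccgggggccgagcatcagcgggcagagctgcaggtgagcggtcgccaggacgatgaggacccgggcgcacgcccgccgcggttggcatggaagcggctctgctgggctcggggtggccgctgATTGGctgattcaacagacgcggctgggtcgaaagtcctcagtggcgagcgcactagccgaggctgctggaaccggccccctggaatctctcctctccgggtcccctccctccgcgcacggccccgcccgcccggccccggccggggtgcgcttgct
Ccnb1, chr13:100786437-100786736, minus strand: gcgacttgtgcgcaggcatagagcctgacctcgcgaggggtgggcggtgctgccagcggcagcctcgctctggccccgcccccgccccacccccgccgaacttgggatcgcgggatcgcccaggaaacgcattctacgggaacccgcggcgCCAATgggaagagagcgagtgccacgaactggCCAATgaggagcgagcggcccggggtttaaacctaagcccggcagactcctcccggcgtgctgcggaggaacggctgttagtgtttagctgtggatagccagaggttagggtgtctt
Positions are counted from the RefSeq gene start, where -1 is the last base before it. The TTTGAA elements of Cdk1 begin at -71 and -15 and its CCAAT boxes, all on the other strand, at -208, -80 and -48. Ccnb2 has CCAAT at -87, -54 and -21 and TTTGAA at -167 and 5, and Ccnb1 has CCAAT at -99 and -67. In Aurka and Plk1 the TTTGAA lies after the start, at 33 and 31. The only CCAAT of Aurkc, on the other strand, also lies after the start, at 25.

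Across the germ-cell classes, most of the 10 genes peaked in late-spermatocyte-like cells, and Ccna2 stood apart as a gene of spermatogonia-like cells. Per 100 cells, the late-spermatocyte-like class held the most UMIs of 8 genes, all but Cdk2 and Ccna2. As CPM, the usual share of a gene in all UMIs of the class, which removes the size of the cell's total, it was highest for 6 (Cdk1, Ccna1, Ccnb2, Aurka, Aurkc and Plk1). Levels between classes are given as a description with no test, because other genes of the same program shaped the clusters. Somatic cells also held UMIs of these genes, and each level is set against the range over the 5 somatic classes and 4 libraries. Whether free RNA, doublets that were not called or expression in somatic cells gave these UMIs was not tested. In elongating-spermatid-like cells the mean of 10 of 10 genes lay at or below the top of that range.

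**Figure D1:**
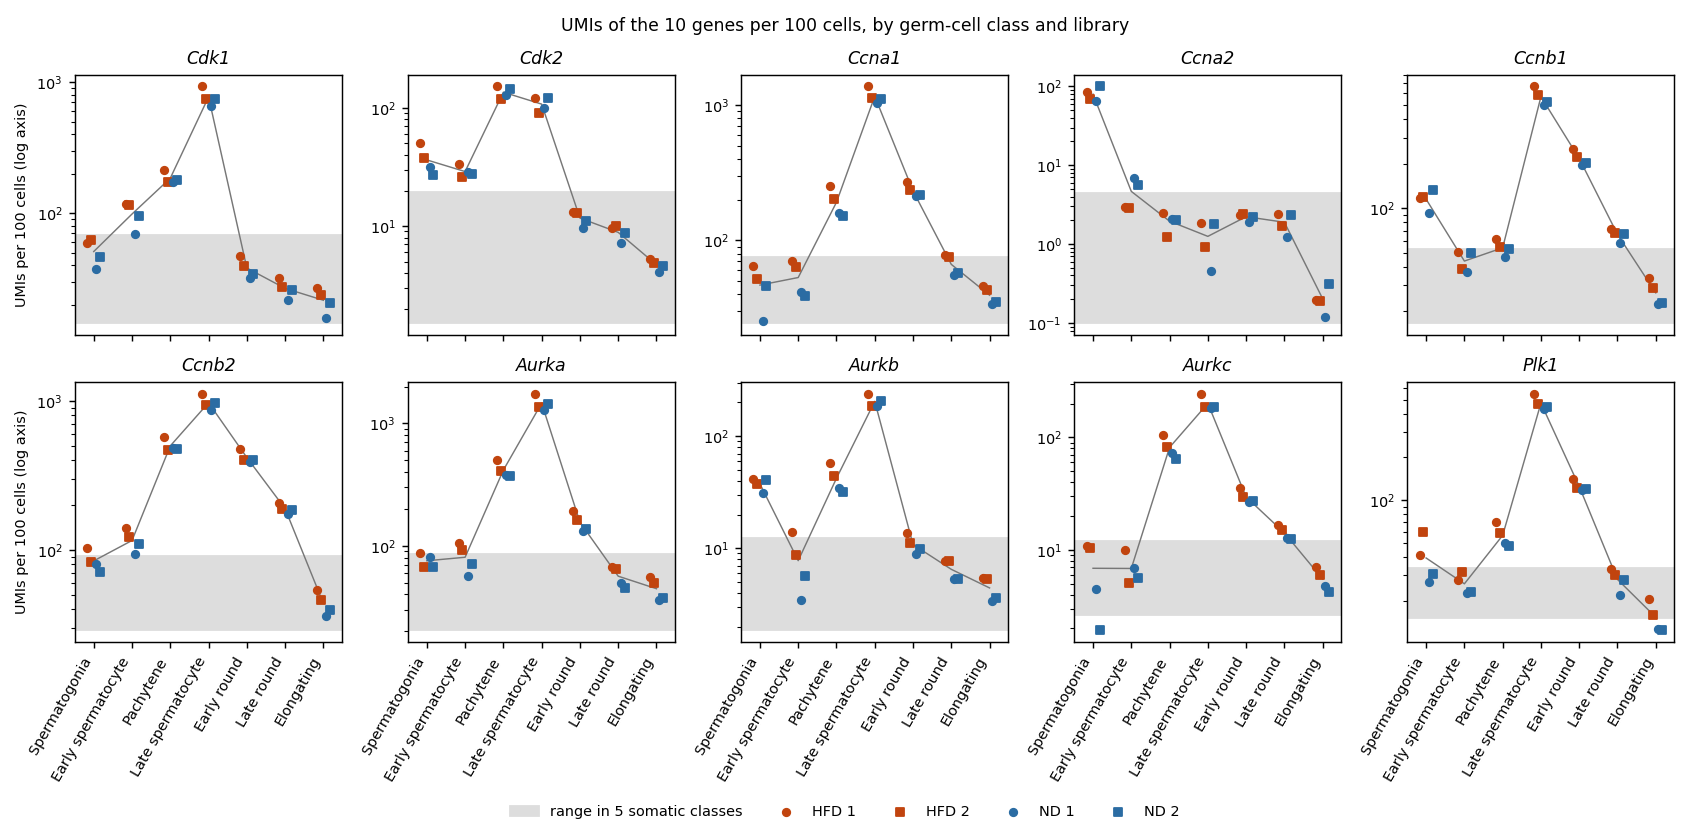
UMIs of each of the 10 genes per 100 cells (log axis) in the 7 germ-cell classes from spermatogonia-like to elongating-spermatid-like cells, 1 point per library, with the mean of the 4 libraries as a line and the range in the 5 somatic classes in grey (for Ccna2, whose lowest somatic value is 0, the grey is drawn from the bottom of the axis). Ccna2 is high in spermatogonia-like cells, Cdk2 in pachytene-like and late-spermatocyte-like cells, and the other 8 genes peak in late-spermatocyte-like cells.

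Cdk1, the kinase that drives entry into division, had 928 and 748 UMIs per 100 late-spermatocyte-like cells in HFD 1 and HFD 2 and 656 and 747 in ND 1 and ND 2. All 4 libraries lay above the somatic range of 14.5 to 68.5 and above pachytene-like cells, where the mean was 185 ± 20.2 (SD, n = 4). In early round-spermatid-like cells it was down to 38.3 ± 6.64, within the somatic range. As CPM, Cdk1 was 247 ± 9.89 in late-spermatocyte-like, 197 ± 33.5 in early-spermatocyte-like and 80.8 ± 0.988 in pachytene-like cells, so its share of the transcripts was lower in pachytene-like cells than in both classes beside them, with no overlap of libraries. The somatic range as CPM was 26.5 to 138, which the late-spermatocyte-like mean exceeded by a factor of 1.79, against 11.2 per 100 cells. Cdk2, which acts at meiotic chromosomes, had 136 ± 14.7 UMIs per 100 pachytene-like and 108 ± 15.6 per 100 late-spermatocyte-like cells. The libraries of these classes overlapped, and both means exceeded the somatic maximum of 19.5 per 100 cells. As CPM, Cdk2 was highest in spermatogonia-like cells (64.4 ± 10.0), overlapping with pachytene-like cells (59.5 ± 4.54), and the late-spermatocyte-like level (34.8 ± 3.52) was below pachytene-like cells in all libraries and within the somatic range of 8.35 to 51.8. Pachytene-like cells held 57.3% of all Cdk2 UMIs of the kept cells and late-spermatocyte-like cells 14.3%.

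Ccna1, the A-type cyclin of male meiosis, had 1368, 1121, 1025 and 1104 UMIs per 100 late-spermatocyte-like cells in HFD 1, HFD 2, ND 1 and ND 2. These values were 15.3 times the highest somatic value (75.5) on average and 4.97 times the level in early round-spermatid-like cells, the next class. As CPM, at 371 ± 11.7, these factors were 1.59 and 2.26. Cells were also thinned to 1500 UMIs, and those with fewer were left out. Of Sertoli-like cells these were 0 of 294 and 8 of 305 in HFD 1 and HFD 2 and 97 of 387 and 57 of 347 in ND 1 and ND 2. After thinning, 38.4% to 44.7% of late-spermatocyte-like cells of a library still had a Ccna1 UMI, against 9.97% to 12.1% of pachytene-like and 13.1% to 20.2% of Sertoli-like cells. Unthinned, the shares were 93.6% to 98.3%, 59.8% to 75.8% and 29.2% to 38.8%. Ccna2, the A-type cyclin known from mitotic cells, had 84.8 and 68.8 UMIs per 100 spermatogonia-like cells in HFD 1 and HFD 2 and 65.7 and 100 in ND 1 and ND 2, from 46 to 67 cells per library. In early-spermatocyte-like cells it was 4.60 ± 2.01, and in late-spermatocyte-like cells 1.25 ± 0.685, within the somatic range of 0 to 4.49. As CPM the step from spermatogonia-like to early-spermatocyte-like cells was 143 ± 29.2 to 9.49 ± 4.80, a fold of 15.1.

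The B-type cyclins differed from each other in pachytene-like cells. Ccnb1 had 53.8 ± 6.30 UMIs per 100 pachytene-like cells, at the top of the somatic range (52.5) but below it as CPM (23.6 ± 1.60, somatic minimum 30.4), and 568 ± 76.3 per 100 late-spermatocyte-like cells. By library the late value was 669, 583, 497 and 524 in HFD 1, HFD 2, ND 1 and ND 2. Per 100 cells Ccnb2 already had 498 ± 49.0 in pachytene-like cells, against a somatic maximum of 90.7, and 969 ± 104 in late-spermatocyte-like cells. As CPM its pachytene-like level (218 ± 3.21) lay within the somatic range, whose maximum was 252. Per 100 cells both stayed above the somatic range in early round-spermatid-like cells, at 218 ± 25.1 for Ccnb1 and 416 ± 38.0 for Ccnb2. As CPM Ccnb2 did so (294 ± 3.57) and Ccnb1 did not (154 ± 7.70, somatic maximum 167). By CPM, spermatogonia-like cells had the highest mean of Ccnb1 (207 ± 32.3), but their libraries overlapped with the late-spermatocyte-like ones (183 ± 13.1).

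Per 100 cells the Aurora kinases were all highest in late-spermatocyte-like cells. Aurka, the spindle pole kinase, had 1753, 1373, 1299 and 1434 UMIs per 100 of these cells in HFD 1, HFD 2, ND 1 and ND 2, which is 17.1 times the somatic maximum on average and, as CPM (471 ± 4.93), 2.01 times. Pachytene-like cells had 416 ± 61.2 and early round-spermatid-like cells 157 ± 28.4. Aurkb, the kinase of the chromosomal passenger complex, had 205 ± 25.6 UMIs per 100 late-spermatocyte-like cells, 42.1 ± 11.9 in pachytene-like and 37.6 ± 4.50 in spermatogonia-like cells, with the last pair overlapping. As CPM, Aurkb was 67.4 ± 6.16 in spermatogonia-like and 65.9 ± 1.39 in late-spermatocyte-like cells, with overlapping libraries. Its germ-cell relative Aurkc had 201 ± 29.7, 81.6 ± 17.7 and 6.92 ± 4.43 in the same classes, and the spermatogonia-like value lay within the somatic range of 2.63 to 11.9. So Aurkb but not Aurkc was above the somatic range (at most 12.2) in spermatogonia-like cells, in 4 of 4 libraries. Plk1, which promotes CDK1 activation, had 472 ± 54.5 UMIs per 100 late-spermatocyte-like, 125 ± 9.91 per 100 early round-spermatid-like and 56.8 ± 10.3 per 100 pachytene-like cells, each above the somatic maximum of 33.6 in 4 of 4 libraries. As CPM only the late-spermatocyte-like level (152 ± 7.23) was above the somatic range of 27.5 to 104 among these classes, with 88.2 ± 1.23 in early round-spermatid-like and 24.8 ± 2.64 in pachytene-like cells.

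Finer clusters (Leiden resolution 2) were made anew from all kept cells, and around the divisions the genes differed between them by unequal factors. They are not a split of the late-spermatocyte-like class described above. Cluster 7, led by Pou5f2, had 1979 cells and a median of 32618 UMIs. Pou5f2 is one of the late-spermatocyte markers, but the cluster was nearest to the pachytene markers and was left unnamed. Cluster 20, late-spermatocyte-like and led by Spc25, a kinetochore gene, had 956 cells and 20046.5 UMIs. Cluster 11, late-spermatocyte-like and led by Gm8138 and Speer4e, had 1829 cells and 9218 UMIs. At resolution 1 the cluster led by Gm8138 and Speer4e was left unnamed, and the late-spermatocyte-like class had a median of 32208 UMIs. How many cells of cluster 11 came from each was not counted. From cluster 20 to cluster 11 all UMIs per cell were lower by a factor of 2.47 ± 0.329 (SD, n = 4 libraries). Ccnb1 (2.06 ± 0.382), Ccnb2 (2.26 ± 0.390), Plk1 (2.42 ± 0.466), Ccna1 (2.60 ± 0.349) and Aurka (2.89 ± 0.393) were lower by factors whose ranges over the libraries overlapped with that of all UMIs. Cdk1 (7.15 ± 1.01), Aurkb (6.87 ± 0.821), Cdk2 (4.20 ± 0.638) and Aurkc (3.47 ± 0.295) were lower by more, and in each of them every library exceeded the highest value of all UMIs (2.77). Ccna2, at the somatic level in both clusters, had a factor of 1.00 ± 0.649. No test was made of these steps.

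Between clusters 7 and 20 the measure mattered, because cluster 20 had fewer UMIs per cell. Ccnb1 was higher in cluster 20 by both measures, at 290 ± 52.1 and 722 ± 105 UMIs per 100 cells in clusters 7 and 20 and at 83.6 ± 11.8 and 300.1 ± 22.1 CPM. Plk1 was so too, at 330 ± 45.4 and 483 ± 48.0 UMIs per 100 cells and at 95.3 ± 7.02 and 201 ± 10.9 CPM. Cdk2 was lower in cluster 20 by both, at 151 ± 15.6 and 59.7 ± 10.3 UMIs per 100 cells and at 43.6 ± 3.71 and 24.8 ± 3.17 CPM. For these 3 genes the libraries of the clusters did not overlap in either measure. Aurkc had 222 ± 26.2 and 147 ± 22.2 UMIs per 100 cells, without overlap, but its CPM of 64.0 ± 2.90 and 61.2 ± 4.72 overlapped. Aurka had 1302 ± 144 and 1297 ± 189 UMIs per 100 cells, and as CPM it was higher in cluster 20, at 376 ± 10.4 and 538 ± 9.66. In cluster 11 Cdk1 had 99.8 ± 11.8 UMIs per 100 cells, above the somatic maximum per 100 cells, but 96.4 to 107 CPM over the 4 libraries, within the somatic range as CPM. Cdk2 in cluster 11, at 14.2 ± 1.69 UMIs per 100 cells, was within the somatic range per 100 cells. The order of clusters is by markers and depth and is not a measured time course.

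**Figure D2:**
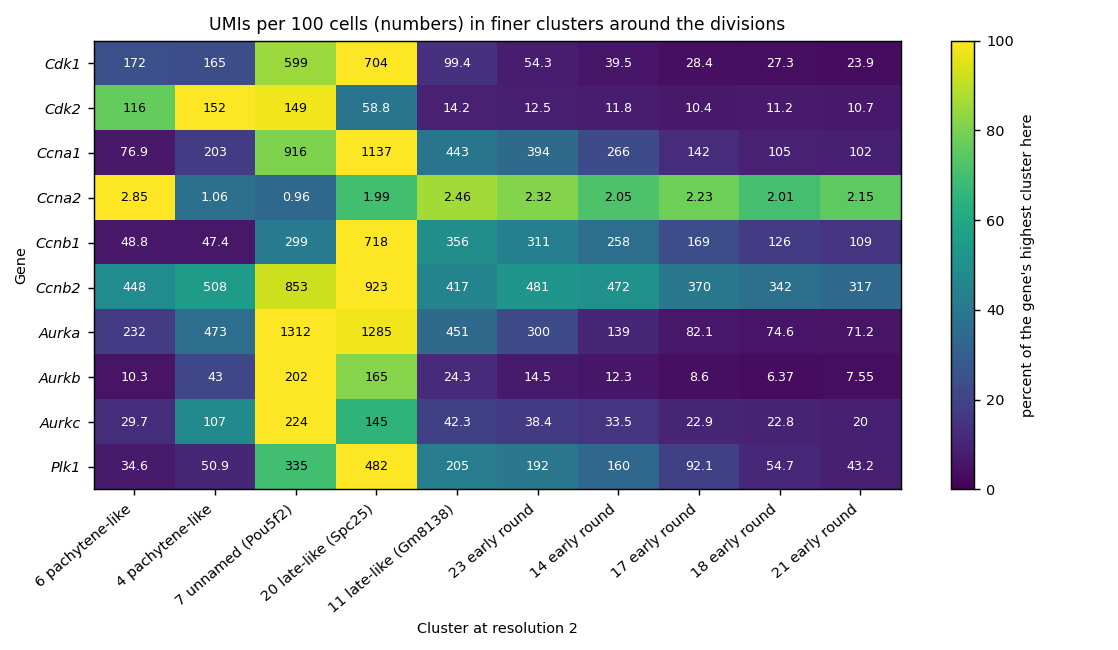
UMIs per 100 cells, all libraries pooled (numbers in the cells), of the 10 genes (rows) in 10 clusters at resolution 2 (columns), coloured by the percent of the gene's highest cluster among these 10. Ccnb1 and Plk1 are highest in cluster 20, Aurkb and Aurkc in cluster 7 and Cdk2 in clusters 4 and 7. Ccna2 stays between 0.96 and 2.85 in these clusters.

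The search for genes of like pattern ran over 18 germ-cell clusters and 11408 genes with at least 20 CPM in 1 or more of them, by the Pearson correlation of log2(CPM + 1). The clusters share libraries, differ in depth and hold from 12 to 4465 cells, so the values describe likeness and carry no p. Each cluster counted the same, and in the smallest a gene could reach 20 CPM on few UMIs. Ccnb1 was most like Plk1 (0.91), followed by Ube2c (0.87) and Elfn1 (0.87). Plk1 was most like Plxdc1 (0.93) and Ccna1 (0.92), and then Gosr1 (0.92). Ccna2 was most like Mageb4 (0.97), Dmrt1 (0.97) and Tet3 (0.96), and Dmrt1 is one of the spermatogonia markers. Ccna1 had Dhrs4 (0.97), Gm15469 (0.97) and Rgcc (0.94) as its nearest genes, and Ccnb2 had Clp1 (0.98), Uqcrfs1 (0.97) and Suclg1 (0.97). Cdk1 was nearest to Sdhd (0.98), Ptpa (0.96) and Unc50 (0.96), and Cdk2 to Epn2 (0.99), Yju2 (0.98) and Kansl3 (0.98). Aurka was nearest to Znhit3, Ciapin1 and Rpa1 (0.96 each), Aurkb to Alkbh4 (0.97), Ankrd27 (0.92) and Klhl21 (0.92), and Aurkc to 4930522O17Rik (0.99), Thsd7b (0.98) and Ankrd55 (0.98). Among the members, the lowest correlation was that of Ccna2 with Aurkc (-0.14).

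For a list of 40 other division regulators, the class of the highest level depended on the measure, with all libraries pooled and among the 7 germ-cell classes. Per 100 cells, 23 had most UMIs in late-spermatocyte-like cells, 6 each in pachytene-like and spermatogonia-like cells, 2 each in early-spermatocyte-like and late round-spermatid-like cells and 1 in early round-spermatid-like cells. By CPM, 5 were highest in late-spermatocyte-like, 19 in spermatogonia-like, 11 in early-spermatocyte-like, 4 in pachytene-like and 1 in early round-spermatid-like cells. With the somatic classes included, Cdkn1a, Cdkn1b, Plk2 and Plk3 were highest by CPM in a somatic class. The 5 highest by CPM in late-spermatocyte-like cells, which were highest there per 100 cells too, were Birc5 and Cdca8, subunits of the chromosomal passenger complex that hold Aurora B and C, Fzr1, an activator of the anaphase-promoting complex, Sgo2a, which protects cohesion at centromeres, and Wee2, which was near 0 (0.0463 CPM). Birc5 had 1214 UMIs per 100 of these cells and Cdca8 1009.

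Between the diets, 5 of the 10 genes were higher in HFD when all kept cells of a library were summed. These were Aurkb, Cdk1, Aurkc, Aurka and Ccna1, by 0.20 to 0.44 on the log2 scale, and none was called lower. Over all 25470 genes tested, 15.3% were called higher and 18.9% lower (p under 0.05 from edgeR's quasi-likelihood test, adjusted by Benjamini-Hochberg), and the median log2 ratio was 0.149 for the members and -0.020 for all genes. The HFD and ND libraries did not overlap for 10 of 10 members, nor for 67.4% of all genes. Late-spermatocyte-like cells, where these 5 genes had their highest level per cell, made up 4.08% and 4.90% of the cells of HFD 1 and HFD 2 and 3.01% and 3.24% of those of ND 1 and ND 2. In another fit the 11 named classes with at least 50 cells in every library got the same weight. Spermatogonia-like and unnamed cells were left out of it. With these weights 0 of the 10 and 0.0353% of all genes were called (limma on log2(CPM + 1)). The ratios were 0.07 for Aurkb, 0.23 for Cdk1, 0.14 for Aurkc, 0.05 for Aurka and 0.12 for Ccna1. Classes with few UMIs counted in them as much as large ones. In fibroblast-like cells Aurka rested on 17 and 11 UMIs in HFD 1 and HFD 2 and 28 and 32 in ND 1 and ND 2. Aurkb had 29 UMIs in macrophage-like, 23 in lymphocyte-like and 11 in fibroblast-like cells, all libraries pooled. How far such classes set these ratios was not tested. At an unadjusted p under 0.05 from that fit there were 2 members, Cdk1 and Ccna2 (-0.65). How many of all genes passed this unadjusted threshold was not counted. The Ccna2 ratio lacks spermatogonia-like cells, where Ccna2 was highest. In early-spermatocyte-like cells it rested on 3 and 4 UMIs in HFD 1 and HFD 2 and 12 and 9 in ND 1 and ND 2. The same limma fit on the cells as they are, added after seeing the data, called 5 members and 34.6% of all genes. In sums over cells, a larger share of a cell type and more RNA per cell cannot be told apart.

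Aurkb showed the largest ratio. Its level, as CPM scaled by edgeR's TMM factors, was 23.5 and 23.2 in HFD 1 and HFD 2 and 17.1 and 17.3 in ND 1 and ND 2. The log2 ratio was 0.44, with an SE of 0.046 and an edgeR adjusted p of 1.76e-05. Cdk1 had 89.7 and 90.7 in HFD and 67.9 and 73.6 in ND, a ratio of 0.35 (SE 0.045; edgeR adjusted p 5.31e-05). Aurkc, at 33.2 and 32.6 against 27.0 and 25.5, had a ratio of 0.33 (SE 0.046; edgeR adjusted p 0.000117). Aurka had 209.6 and 206 against 168 and 172, a ratio of 0.29 (SE 0.038; edgeR adjusted p 6.21e-05), and Ccna1 had 169 and 167 against 145 and 146, a ratio of 0.20 (SE 0.038; edgeR adjusted p 0.000813). The HFD and ND libraries of these 5 genes did not overlap. Ccna2 was the only member with a negative ratio, -0.29 (SE 0.12, edgeR adjusted p 0.0819), with 206 and 170 UMIs in the HFD libraries against 208 and 230. Spermatogonia-like cells were 0.351% and 0.356% of the HFD and 0.463% and 0.376% of the ND cells. They held 20.6% of all Ccna2 UMIs of the kept cells, and early round-spermatid-like cells held 29.9%. Plk1 (0.09), Cdk2 (0.09), Ccnb1 (0.06) and Ccnb2 (0.02) were not called.

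Within the late-spermatocyte-like class, where most members were highest, no diet difference of a member was called. In late-spermatocyte-like cells edgeR called 0 of 9 tested members, against 0.252% of the 13887 genes tested, DESeq2 called 0 as well, and 3 members had an unadjusted edgeR p under 0.05 (Cdk2, Ccnb1 and Cdk1, with ratios of -0.21, 0.15 and 0.10), as had 1434 of all genes. Aurka had 480 and 476 CPM in HFD and 467 and 464 in ND there, a ratio of 0.04 (SE 0.034). Aurkb had 65.6 and 64.8 in HFD and 66.3 and 67.4 in ND, a ratio of -0.04 (SE 0.053). Ccna1 had 374 and 389 against 368 and 358, a ratio of 0.07 (SE 0.037). These ratios of the members lay between -0.21 and 0.15, and Ccna2 had too few UMIs to be tested. The HFD and ND libraries did not overlap for 6 of the 9 members, nor for 40.4% of all genes. Cluster 7 of the finer clusters, led by the late-spermatocyte marker Pou5f2 but nearest to pachytene, was tested alone after the data had been seen. There Ccnb1 (0.36), Ccna1 (0.16) and Cdk1 (0.16) were called higher, with 1.29% of all genes called.

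In pachytene-like cells 5 of the 10 members were higher in HFD, against 4.59% of the 17523 genes tested called higher and 8.18% called in either direction. Aurkb had 22.3 and 20.3 CPM in HFD and 16.1 and 14.3 in ND. The log2 ratio was 0.49, with an SE of 0.074 and an edgeR adjusted p of 0.00174. Ccna1 had 96.5 and 94.0 against 73.0 and 68.7, a ratio of 0.43 (SE 0.043; edgeR adjusted p 5.91e-05). Aurkc (0.33, SE 0.063), Plk1 (0.29, SE 0.059) and Aurka (0.16, SE 0.037) were the other 3, with edgeR adjusted p of 0.00759, 0.00949 and 0.0141, and their HFD and ND libraries did not overlap. The libraries were apart for 6 of 10 members in this class and for 54.3% of all genes. Cdk1 did not differ beyond the spread, with 82.5 and 80.4 CPM in HFD and 79.5 and 81.0 in ND.

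The pachytene-like class joins clusters 3 and 5, and their mix differed between the diets. Cluster 3 held 1086 and 1343 cells of HFD 1 and HFD 2 against 946 and 975 of ND 1 and ND 2, and cluster 5 held 470 and 601 against 565 and 586. Ccna1 was called higher in each of them, with a ratio of 0.33 in cluster 3 and 0.47 in cluster 5 (edgeR adjusted p 0.000648 and 0.000756). Aurkb (0.40), Plk1 (0.29) and Aurkc (0.25) were called in cluster 3 only, and Aurka in neither. Over all genes, 1.99% were called in cluster 3 and 1.35% in cluster 5. At resolution 2, Ccna1 was called higher in clusters 6, 4 and 7 (0.44, 0.31 and 0.16), Ccnb1 (0.36) and Cdk1 (0.16) in cluster 7 alone, and no member in clusters 20 and 11. Of all genes, edgeR called 1.96% in cluster 6, 0.451% in cluster 4, 1.29% in cluster 7, 0.027% in cluster 20 and 0.135% in cluster 11. These single clusters were tested after the data had been seen. With the called doublets kept, all cells were clustered and named anew. The pachytene-like class was then made of clusters of 2736, 1318 and 1666 cells, against 6572 cells at the main setting. There 4 of the 5 calls in the class were lost, those of Aurkb (0.29), Aurkc (0.25), Plk1 (0.15) and Aurka (0.13), and that of Ccna1 remained. Added doublets and changed class membership cannot be told apart in this setting. The Aurka call was also lost without HFD 1 (0.15).

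Early-spermatocyte-like cells gave 0 calls among 9 tested members and 0 among 8620 genes, by edgeR and by DESeq2, from 101 to 173 cells per library. At an unadjusted edgeR p under 0.05 there were 4 members (Aurkb 1.12, Ccna1 0.59, Aurka 0.49 and Cdk1 0.38) and 846 genes. In early round-spermatid-like cells 2 of 10 members were higher, against 1.27% of 18997 genes called higher and 2.63% called in either direction. Aurka had 122 and 118 CPM in HFD and 101 and 100.2 in ND, a ratio of 0.25 (SE 0.036; edgeR adjusted p 0.00539), and Cdk1 had 29.5 and 28.6 against 24.6 and 25.1, a ratio of 0.23 (SE 0.052; edgeR adjusted p 0.0374). This Cdk1 call was lost with DESeq2 (0.22), without a filter on low counts (0.21), without HFD 1 (0.20), without HFD 2 (0.24) and with the replicate number as a block (0.23). The class joins clusters 12, 15 and 16, and their mix differed between the diets. Cluster 15, where pooled Aurka was 189 CPM against 67.7 in cluster 12 and 48.3 in cluster 16, held 1004 and 1104 of the 2318 and 2427 cells of HFD 1 and HFD 2 and 1216 and 1141 of the 3157 and 3105 cells of ND 1 and ND 2. No member was called in cluster 12, 15 or 16 tested alone, where 0.466%, 0.913% and 0.174% of all genes were. There Aurka had ratios of 0.19, 0.15 and 0.20 (unadjusted p from edgeR 0.00582, 0.00124 and 0.00794) and Cdk1 of 0.19, 0.13 and 0.34. Late round-spermatid-like cells gave 0 calls among 10 members, against 0.116% of 13800 genes, by edgeR and DESeq2, with 2 members and 1194 of all genes at an unadjusted edgeR p under 0.05.

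**Figure D3:**
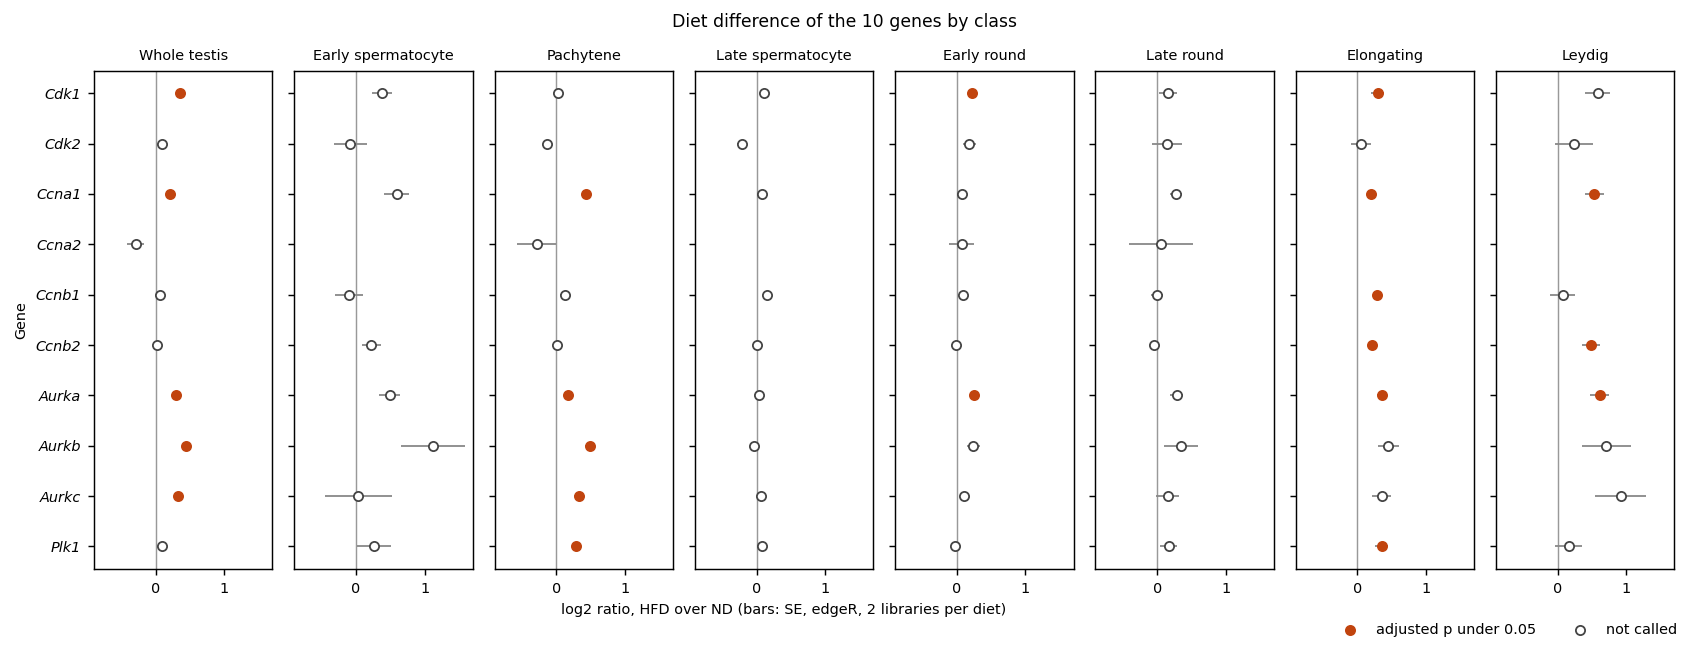
Log2 ratios of HFD over ND of the 10 genes (rows) in the whole testis, 6 germ-cell classes and Leydig-like cells (panels), with the standard error from edgeR and filled points where the adjusted p was under 0.05; a missing point was not tested. In late-spermatocyte-like cells no point is filled and the ratios lie between -0.21 and 0.15.

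In elongating-spermatid-like cells 6 of 9 tested members were called higher, against 4.06% of 14866 genes called higher and 8.57% in either direction, while the mean level of these genes in that class lay within the somatic range per 100 cells, as it did by CPM for all but Plk1 (22.96, below the somatic minimum of 27.5). They were Plk1 and Aurka (0.35 each), Cdk1 and Ccnb1 (0.29 each), Ccnb2 (0.22) and Ccna1 (0.20). Aurka had 73.6 and 76.5 CPM in HFD and 58.4 and 59.1 in ND (SE of the ratio 0.062; edgeR adjusted p 0.000864). DESeq2 called Aurka alone of these 6, gave no adjusted p for Plk1 (0.35) and did not call the other 4 (0.20 to 0.29). Of all genes in this class DESeq2 called 622 and edgeR 1274. Of the 6 edgeR calls 5 were lost without HFD 1, with ratios of 0.22 to 0.32, and all 6 without HFD 2, with ratios of 0.16 to 0.42. Without ND 1 the calls of Cdk1 (0.13), Ccnb2 (0.18) and Ccna1 (0.20) were lost, and without ND 2 those of Plk1 (0.32) and Ccna1 (0.21). With doublets kept, and so with cells clustered and named anew, 5 were lost, all but that of Aurka. The ratios of the 5 were 0.02 for Ccnb2, 0.08 for Ccnb1, 0.14 for Ccna1, 0.20 for Plk1 and 0.24 for Cdk1. In Leydig-like cells, the somatic class that makes testosterone, edgeR also called 3 of 9 tested members higher, Aurka (0.61), Ccna1 (0.53) and Ccnb2 (0.49). Of the 11768 genes 2.35% were called higher and 4.96% in either direction. There DESeq2 called 0 members, giving no adjusted p for 9 members, and 114 of all genes. No member was called in Sertoli-like, macrophage-like, lymphocyte-like or fibroblast-like cells by edgeR or DESeq2, where 0.00978%, 1.38%, 0.119% and 0% of all genes were by edgeR. At an unadjusted edgeR p under 0.05 these classes had 1, 0, 0 and 1 members, and 714, 480, 263 and 142 of all genes. The part of free RNA in these differences was not tested.

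**Figure D4:**
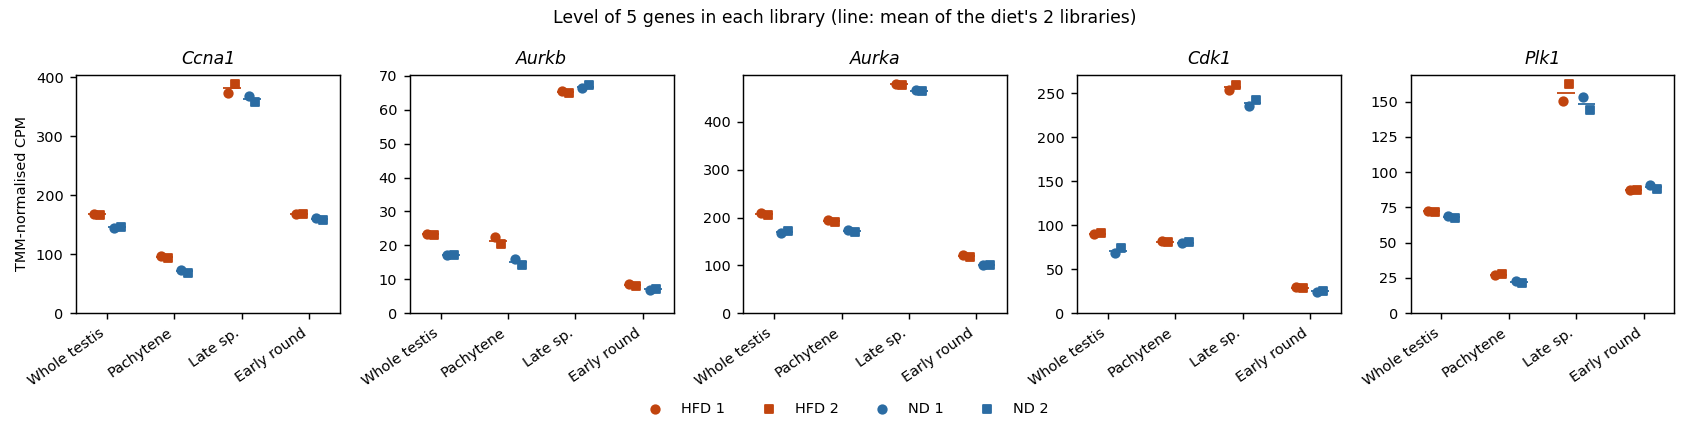
TMM-normalised CPM of Ccna1, Aurkb, Aurka, Cdk1 and Plk1 (panels) in each of the 4 libraries, in the whole testis and in 3 germ-cell classes, with a line at the mean of each diet's 2 libraries. HFD and ND points are apart in the whole testis and, except for Cdk1, in pachytene-like cells, while in late-spermatocyte-like cells they are apart for 4 of the 5 genes, all but Plk1, by log2 ratios of -0.04 to 0.10, as they are for 40.4% of all genes.

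Where a member was called in 1 germ-cell class and had the opposite sign in another germ-cell class, the difference itself was tested as an interaction of diet and class, in 7 tests (somatic classes were not compared in this way), with adjustment over all genes of the pair of classes. Each difference comes from a joint fit of both classes with its own scaling, and so is not the subtraction of the ratios fitted class by class. The fit had no term for the library, so the sums of both classes from a library were treated as separate samples. Its p-values do not account for that pairing. Plk1, at 0.29 in pachytene-like and -0.03 in early round-spermatid-like cells when fitted apart, differed by 0.36 in the joint fit (SE 0.068; edgeR adjusted p 0.0174). That call was lost without HFD 1 (0.34), without HFD 2 (0.35), without ND 2 (0.29), with doublets kept (0.22), with RLE scaling factors (0.30) and at Leiden resolution 2 (0.34). For Aurkb the difference between pachytene-like and late-spermatocyte-like cells was 0.49 (SE 0.088) with an edgeR adjusted p of 0.137. The other 5 tests, for Ccnb1, Ccnb2 and Plk1 against elongating-spermatid-like cells, had edgeR adjusted p of 0.0623 to 0.461.

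Of the 40 other division regulators, 38 were tested in the whole testis and 17 were called higher and 3 lower (edgeR), with a median log2 ratio of 0.098, against 15.3% higher and 18.9% lower of all genes. Those with the largest ratios were Sgo2a (0.44), Fbxo43, an inhibitor of the anaphase-promoting complex in meiosis (0.43), Tpx2, the activator of Aurora A (0.38), Cdca8 (0.37), Cdkn1a, a CDK inhibitor (-0.33), Sgo1 (0.32), the checkpoint kinase Bub1b (0.31), the separase gene Espl1 (0.29), Incenp, the scaffold of the passenger complex (0.28), and Cks1b, a CDK subunit (-0.27). In pachytene-like cells 5 of 34 were higher (4.59% of all genes) and 1 lower, led by Incenp (0.21) and Fbxo43 (0.19), with Cks1b lower (-0.35). In early round-spermatid-like cells 4 of 33 were higher (1.27% of all genes) and 0 lower, led by Fbxo43 (0.49) and Sgo2a (0.42), and in elongating-spermatid-like cells 6 of 31 were higher (4.06% of all genes) and 0 lower, led by Bub1b (0.52) and Sgo2a (0.47). DESeq2 called 1 regulator in each of these 3 classes and 17 in the whole testis. It gave no adjusted p for 6, 17 and 22 regulators in the 3 classes in that order. Of all genes it called 592 of 17523, 307 of 18997 and 622 of 14866 in these classes and 6730 of 25470 in the whole testis. In late-spermatocyte-like cells 0 of 32 were called by edgeR and by DESeq2 (no DESeq2 adjusted p for 7), with 5 at an unadjusted edgeR p under 0.05. Early-spermatocyte-like and late round-spermatid-like cells gave 0 of 30 each by both tools, with 2 and 4 at an unadjusted edgeR p under 0.05.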

How the data were processed

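UMI counts per gene and cell barcode were used as deposited by the authors in 4 matrices of whole numbers, which the file headers credit to 10x software 3.0.2. The build was mm10 per the submitters' processing notes, and the aligner settings are not given in the sources used here. The 10 genes and the lists were chosen with earlier results of these data known.

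Barcodes with under 200 genes or over 20% mitochondrial UMIs were removed (13 to 42 per library), as were Scrublet doublets at an expected rate of 0.1 (421 to 853, or 3.11% to 5.94%). Cells were clustered with scanpy 1.11.5 on 2000 variable genes without the members, 30 components, 15 neighbours and Leiden resolution 1. A cluster took the name of its highest marker list, unless a rule completed after seeing the data left it unnamed. The rule left out low-depth clusters with no marker of that list among their leading genes. Clusters led by mitochondrial transcripts, or with more markers of another class among their leading genes, were left unnamed too. Other clusters of low depth kept their names.

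Counts were summed per library and class (at least 50 cells in each library) and tested with edgeR 4.0.16 (quasi-likelihood, TMM factors, filterByExpr, Benjamini-Hochberg over all genes, threshold 0.05), with 2 libraries per diet. DESeq2 1.42.0, limma 3.58.1 and other settings were alternatives, and the script was tested on simulated data. An exact permutation test of 2 against 2 libraries cannot go below p = 0.3333. The genes named beyond the members were, for each member, the 3 of highest likeness and, of the other regulators, those called with the largest ratios and the peaks by class. Same-numbered libraries of the diets did not deviate together.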

Additional observations from a re-analysis of the deposited data

Results flagged for a closer look

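Plk1, the polo-like kinase, was singled out because its diet ratio differed between pachytene-like and early round-spermatid-like cells by a test of the difference itself. The log2 ratio of HFD over ND was 0.29 in pachytene-like cells, with 27.0 and 27.5 CPM in HFD and 23.1 and 21.5 in ND. In early round-spermatid-like cells it was -0.03, with 87.4 and 87.2 CPM in HFD and 90.6 and 87.9 in ND. In a joint fit of both classes, with its own scaling, the difference was 0.361 on the log2 scale (SE 0.068, edgeR adjusted p 0.0174 over 20964 genes). This p treats the sums of both classes from a library as separate samples, and 7 such tests were run. The adjusted p ranged from 3.25e-05 without a filter on low counts to 0.786 without HFD 1 over the 10 alternatives, and every alternative kept the sign.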

How the results depend on the processing

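With 2 libraries per diet, small differences may have been missed, and a large share of the cells was unnamed. At resolution 2 and with doublets kept, cells were clustered and named anew, so their classes do not hold the same cells as at the main setting. The late-spermatocyte-like class then included a cluster led by Gm8138, which was not part of it at the main setting. The count of members called in the whole testis was 5, and among the alternatives it fell to 0 with equal class weights (limma), was 5 with limma and the cells as they are and was 5 to 6 with 1 library left out. The count of member calls over the germ-cell classes was 13, and it was 7 with DESeq2 (which gave no adjusted p for 1 of the 13), 5 with doublets kept and 6 to 16 with 1 library left out, with 6 both without HFD 1 and without HFD 2. With the replicate number as a block, these counts were 6 and 14. Of all genes too, DESeq2 called fewer than edgeR. The counts were 592 against 1433 in pachytene-like, 307 against 500 in early round-spermatid-like and 622 against 1274 in elongating-spermatid-like cells. For the other settings, the share of all genes called in the germ-cell classes is not given here. Under the block the call of Cdk1 in early round-spermatid-like cells (0.23) was lost, and the numbers did not pair the libraries (r of deviations 0.038 over 25470 genes). The count of members highest in late-spermatocyte-like cells by CPM was 6, and 6 to 8 under the alternatives. The Plk1 difference between classes was 0.36 with the block, 0.30 with RLE factors, 0.22 with doublets kept, 0.34 at resolution 2 and 0.29 to 0.40 with 1 library left out.

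Of the alternative values of single genes, 706 kept direction and call, 43 lost a call, 15 gained one and 30 changed sign, and of those added after seeing the data 66, 22, 2 and 16 did. Among the sign changes, only Aurkc in pachytene-like cells (-0.013 in cluster 5 alone) had a call to begin with, and the cause was not tested. The others, called on neither side, had these log2 ratios. Classes at resolution 2 and with doublets kept held other cells than at the main setting. At resolution 2 they were early-spermatocyte-like Ccnb1 0.097, late-spermatocyte-like Aurkb 0.054, Ccnb2 -0.029, Plk1 -0.016 and pachytene-like Ccnb2 -0.0024. With doublets kept they were early round-spermatid-like Ccna2 -0.13, early-spermatocyte-like Ccnb1 0.10, late round-spermatid-like Ccnb1 0.068 and late-spermatocyte-like Aurkb 0.094, Ccnb1 -0.017, Ccnb2 -0.054, Plk1 -0.023. With equal class weights there was whole-testis Cdk2 -0.068. With 1 library left out the ranges were early round-spermatid-like Ccna2 -0.056 to 0.18, early-spermatocyte-like Aurkc -0.41 to 0.46, Ccnb1 -0.25 to 0.060, Cdk2 -0.22 to 0.063, elongating-spermatid-like Cdk2 -0.014 to 0.12, late round-spermatid-like Ccna2 -0.32 to 0.51, Ccnb1 -0.071 to 0.057, late-spermatocyte-like Aurkc -0.0052 to 0.13, Ccnb2 -0.028 to 0.055, pachytene-like Ccna2 -0.70 to 0.044, Ccnb2 -0.013 to 0.040. Single clusters gave pachytene-like Ccna2 0.040, Cdk1 -0.0037 in cluster 5, early round-spermatid-like Ccna1 -0.061, Ccnb1 -0.014 in cluster 12 and early round-spermatid-like Ccna2 -0.035, Aurkc -0.069 in cluster 16. At resolution 2 they gave pachytene-like Ccnb2 -0.029 in cluster 4, pachytene-like Cdk1 -0.0097 in cluster 6 and late-spermatocyte-like Aurka -0.025, Ccna1 -0.045, Plk1 -0.13, Cdk2 0.073, Ccnb2 -0.13, Aurkb 0.052, Ccnb1 -0.059 in cluster 11.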

Other observations

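An unnamed cluster of 3642 cells with a median of 1934.5 UMIs, led by Gm8138 and Speer4e and nearest to the late-spermatocyte markers, also held the members. All libraries pooled, it had 241 UMIs of Ccna1, 249.1 of Aurka, 228 of Ccnb2, 192 of Ccnb1 and 111 of Plk1 per 100 cells. It had 61.9 of Cdk1, 24.3 of Aurkc, 14.4 of Aurkb and 9.23 of Cdk2, and these 9 genes were all lower per 100 cells in it than in late-spermatocyte-like cells. As CPM the cluster had 421 for Ccna1, 398 for Ccnb2, 335 for Ccnb1 and 193 for Plk1, above the mean of late-spermatocyte-like cells for each of these genes. Aurka, Cdk1, Aurkc, Aurkb and Cdk2 were below that mean as CPM too. The 10-gene pattern of the cluster was compared with no test. Its low depth, with no late-spermatocyte marker among its 10 leading genes, left it without a class name. Cluster 11 at resolution 2, also led by Gm8138 and Speer4e but with a median of 9218 UMIs, was named late-spermatocyte-like. How many cells both clusters share was not counted.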
